A study of Mus musculus with 34 samples.

Results

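The promoters of 10 genes with which the intestinal epithelium answers bacteria and inflammatory signals were examined for trimethylation of lysine 4 on histone H3 (H3K4me3), out of 21938 promoters of protein-coding genes. The genes were chosen by name, with earlier results of these data known. They are Reg3b, Reg3g, Saa1, Saa2 and Lcn2, which encode secreted antimicrobial and acute-phase proteins, Pigr, which encodes the receptor that carries IgA across the epithelium, Il18, which encodes an epithelial cytokine, and Nfkbiz, Nfkbia and Tnfaip3, which encode regulators of NF-κB. The value of a promoter is the mean H3K4me3 signal within 1000 bp on each side of the gene 5′ end of GENCODE M21 on the mouse genome mm10. The signal is coverage per base, which the authors scaled to 10000000 tags per library.

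H3K4me3 was profiled by CUT&RUN, in which an antibody brings a nuclease to the mark and the released DNA fragments are sequenced. The nuclei came from villus cells that were scraped off the small intestine of 2 wild-type mice and 2 ApcMin/+ mice, all on the C57BL/6J background and all 5 weeks old by the sample labels, although the study's methods say 6 weeks. No mouse was treated. ApcMin/+ mice carry a truncating Min allele of the tumour suppressor Apc in every cell beside a normal allele, and develop many intestinal adenomas with age. The intestine looked normal by the methods, so these samples are a model of tissue before visible tumours and not of adenomas. Whole scrapings were used without sorting, and a smaller share of marked cells and less of the mark per cell cannot be told apart in them. Other antibodies, RNA-seq and mice of another age were not analysed here.

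H3K4me3 is deposited at the start of genes that are transcribed or ready for transcription, and promoters rich in CpG usually carry it more often than promoters poor in CpG. NF-κB dimers rest in the cytoplasm while IκB proteins such as the Nfkbia product hold them, and enter the nucleus when signals from Toll-like, IL-1 or TNF receptors lead to the loss of IκB. STAT3, which is switched on by IL-22 and IL-6, acts beside NF-κB on many genes for antimicrobial proteins. In the small intestine these genes respond to bacteria that touch the epithelium, and some of them are nearly silent in animals without bacteria.

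Wild-type replicates 1 and 2 were sequenced to 1430000 and 4790000 tags, ApcMin/+ replicates 1 and 2 to 3700000 and 5470000 tags. A window that holds 3 fragments therefore has a signal between 0.274 and 1.05 depending on the library. ApcMin/+ replicate 1 stood apart from the other libraries. Its median among the 9930 promoters whose mean signal reached 2 was 13.2, against 4.53 and 3.06 in the wild-type libraries and 4.18 in ApcMin/+ replicate 2, while its background away from promoters was the lowest (0.185 against 0.226 to 0.308). It had the highest value of the 4 libraries at 98.6% of those promoters, which were picked by a mean that includes it, and at 57.2% of all 21938 promoters. The log2 differences of tested genes are therefore given on the deposited scale and again after each library was centred on its median promoter, a step that removes 0.85 from a log2 difference. Two-sided exact permutation of 2 libraries against 2 cannot give a p below 0.333, so single promoters were tested only with limma, across all 9930 promoters.

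The stretches just upstream of the start are shown for the antimicrobial genes first, because these genes are known to depend on a few short words of sequence near the start. They are RefSeq sequences on GRCm38.p6, the assembly named mm10, and 9 of the 10 genes had an entry, the exception being Nfkbiz. Capitals mark the words found on either strand, namely TATAAA, the STAT word TTCNNNGAA, the C/EBP word TTNNGCAA, the AP-1 word TGANTCA and the κB consensus, with overlaps allowed. Stretches that GENCODE annotates as exon are left out, so that the sequences of Reg3b and Saa2 are shorter than 250 bases.
Reg3b, chr6:78370707-78370860, plus strand: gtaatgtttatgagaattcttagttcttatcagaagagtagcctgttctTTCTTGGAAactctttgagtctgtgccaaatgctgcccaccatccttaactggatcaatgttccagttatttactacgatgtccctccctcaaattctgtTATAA
Reg3g, chr6:78468875-78469124, minus strand: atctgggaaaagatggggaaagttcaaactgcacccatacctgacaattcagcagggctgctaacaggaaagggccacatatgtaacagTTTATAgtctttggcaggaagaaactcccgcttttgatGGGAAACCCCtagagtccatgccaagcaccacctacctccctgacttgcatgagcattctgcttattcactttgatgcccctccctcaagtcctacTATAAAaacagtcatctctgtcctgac
Saa1, chr7:46742981-46743230, minus strand: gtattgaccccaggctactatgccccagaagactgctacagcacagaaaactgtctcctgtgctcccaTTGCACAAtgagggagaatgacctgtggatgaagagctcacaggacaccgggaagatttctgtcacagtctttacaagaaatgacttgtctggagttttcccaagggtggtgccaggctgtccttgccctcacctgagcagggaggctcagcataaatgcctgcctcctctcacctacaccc
Saa2, chr7:46751583-46751789, plus strand: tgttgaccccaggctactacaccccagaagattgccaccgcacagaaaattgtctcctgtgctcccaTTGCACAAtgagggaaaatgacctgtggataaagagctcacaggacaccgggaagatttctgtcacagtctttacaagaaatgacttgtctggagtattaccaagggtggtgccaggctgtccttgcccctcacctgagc

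Reg3b and Reg3g lie on opposite strands of chromosome 6 and their 250 upstream bases were 68.4% identical when aligned. Both hold a TATAAA word close to the start, 29 bases upstream in Reg3b and 27 bases upstream in Reg3g. The last base of that word in Reg3b falls in an annotated exon and is not printed. Among the 32851 promoters that RefSeq lists, 12.4% hold TATAAA within 250 bases. Reg3b holds a STAT word that starts 129 bases upstream, which 7.02% of promoters hold, whereas Reg3g holds no STAT word but a κB consensus 123 bases upstream, which 7.25% hold. Saa1 and Saa2 were 94.8% identical over the upstream bases, and both hold the same C/EBP word, which 9.56% of promoters hold. A match describes letters and is not evidence of binding.

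The upstream sequences of both NF-κB inhibitors and of Pigr are shown next, since these genes were among the marked members described below and the inhibitors are known targets of NF-κB itself.
Nfkbia, chr12:55492648-55492897, minus strand: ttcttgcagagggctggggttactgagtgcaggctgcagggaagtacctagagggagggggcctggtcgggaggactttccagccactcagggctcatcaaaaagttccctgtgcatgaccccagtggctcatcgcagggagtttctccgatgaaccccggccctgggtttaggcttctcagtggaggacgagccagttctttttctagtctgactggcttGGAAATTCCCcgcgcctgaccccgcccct
Tnfaip3, chr10:19015411-19015547, minus strand: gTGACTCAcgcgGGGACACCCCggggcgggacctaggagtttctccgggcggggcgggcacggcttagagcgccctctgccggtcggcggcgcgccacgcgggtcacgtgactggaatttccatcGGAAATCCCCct
Pigr, chr1:130826434-130826683, plus strand: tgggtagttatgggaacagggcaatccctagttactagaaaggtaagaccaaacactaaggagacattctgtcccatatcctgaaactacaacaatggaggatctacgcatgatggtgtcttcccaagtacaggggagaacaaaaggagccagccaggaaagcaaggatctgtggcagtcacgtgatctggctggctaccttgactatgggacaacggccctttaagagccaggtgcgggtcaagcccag

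Nfkbia holds a κB consensus 29 bases upstream of its start. Tnfaip3 holds a pair of them, 12 and 125 bases upstream, and an AP-1 word, found in 6.75% of promoters, 136 bases upstream. Tnfaip3 also holds a TATAAA word 225 bases upstream, in a stretch that is not printed because it is exonic in another transcript. Pigr holds none of the 5 words in this window, and Il18 only TATAAA. Lcn2, whose upstream bases are mostly exonic in another transcript and are not shown, holds only a C/EBP word. The RefSeq start of Lcn2 lies 513 bp downstream of its GENCODE 5′ end, and that of Reg3b 228 bp downstream.

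The 10 promoters fell into marked and nearly unmarked ones. Pigr, Tnfaip3, Il18, Nfkbia and Nfkbiz had a mean signal over the 4 libraries of 10.6, 7.02, 5.57, 3.77 and 2.15 and entered the test. Lcn2, Reg3g, Reg3b, Saa1 and Saa2 had means of 1.61, 1.30, 0.79, 0.79 and 0.30 and stayed under the minimum of 2. The 5 secreted effectors were in the low group, and the receptor, the cytokine and the NF-κB regulators in the marked group. This split rests on the mean of all 4 libraries: in the wild-type libraries alone Lcn2 (mean 2.14) was above Nfkbia (1.73) and Nfkbiz (1.08), which reached the minimum through the ApcMin/+ libraries. Of all 21938 promoters 9930 reached the minimum. The 5 effectors were not tested, and their log2 differences, ApcMin/+ minus wild type, were 1.05 at Reg3b, 0.49 at Reg3g, −0.14 at Saa1, 0.15 at Saa2 and −0.43 at Lcn2 on the deposited scale. After centring they were 0.20, −0.36, −0.99, −0.71 and −1.28 in the same order. Centring takes the same amount from every promoter, so nearly empty windows turn negative by it alone. Reg2, a relative with at most 2 fragments in a library, went from 0.04 to −0.82. The centred values of the 5 effectors therefore cannot be read as a lower mark.

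**Figure D1:**
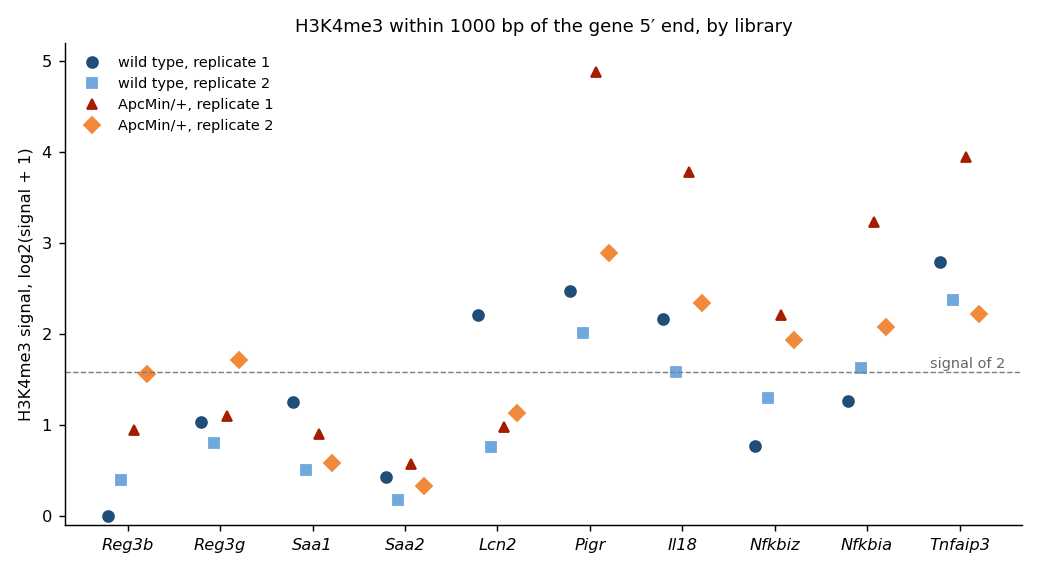
H3K4me3 signal of the 10 promoters on a log2(signal + 1) axis, with 1 point for each of the 4 libraries and a dashed line at a signal of 2. ApcMin/+ replicate 1 has the highest point at Saa2 and at Pigr, Il18, Nfkbiz, Nfkbia and Tnfaip3, whereas Reg3b and Reg3g are highest in ApcMin/+ replicate 2, and Saa1 and Lcn2 in wild-type replicate 1.

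In the comparison of ApcMin/+ with wild-type mice none of the 10 promoters passed the limma test at an adjusted p of 0.05, and neither did any of the 9930 promoters tested (0%; 132 had an unadjusted p under 0.05). The pair of ApcMin/+ libraries exceeded the pair of wild-type libraries at 6 of the 10 genes, namely Reg3b, Reg3g, Pigr, Il18, Nfkbiz and Nfkbia. The same was found at 26% of all 21938 promoters and at 38.5% of the 9930 promoters whose mean signal reached 2. Both ApcMin/+ libraries were below both wild-type libraries at 0 of the 10 genes and at 7.17% of all promoters. The median log2 difference of the 5 tested genes was 1.19, beside 0.85 over all tested promoters. Nfkbia and Nfkbiz, with wild-type means of 1.73 and 1.08, entered it only through the ApcMin/+ libraries, so the minimum favours a high median. With no minimum the median was 0.77 over the 10 genes and 0.35 over all 21938 promoters. With only ApcMin/+ replicate 1 left in its group, that is without ApcMin/+ replicate 2, the test called 6479 of 9930 promoters, among them Pigr, Il18, Nfkbia and Nfkbiz. Without ApcMin/+ replicate 1 it called 0 promoters, the median log2 difference over all tested promoters was 0.13, and that of the 5 genes was 0.64, with 0.65 at Pigr, 0.47 at Il18, 0.91 at Nfkbiz, 0.64 at Nfkbia and −0.36 at Tnfaip3.

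Reg3b and Reg3g encode C-type lectins that epithelial cells secrete against bacteria, the latter mainly against Gram-positive species. At Reg3b (ENSMUSG00000071356.7, chr6:78370657-78373466, plus strand) wild-type replicates 1 and 2 had a signal of 0 and 0.31, ApcMin/+ replicates 1 and 2 one of 0.92 and 1.94. These values rest on 0, 3, 7 and 21 fragments. The groups did not overlap. The rate per tag, with libraries summed by genotype, was 6.33 times as high in ApcMin/+ (exact 95% interval 1.96 to 32.5), an interval that covers counting error only and not the difference between mice. The empty window of wild-type replicate 1 allows a signal of up to 1.05, the value of 3 fragments, or 1.29 as the upper end of the exact 95% interval used for the other windows, so a signal as in ApcMin/+ replicate 1 could not have been distinguished from it.

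At Reg3g (ENSMUSG00000030017.2, chr6:78466269-78468872, minus strand) the wild-type libraries had a signal of 1.05 and 0.74 and the ApcMin/+ libraries one of 1.14 and 2.27, from 3, 7, 8 and 25 fragments. The groups did not overlap, yet ApcMin/+ replicate 1 exceeded wild-type replicate 1 by less than the value of a single fragment in the latter. The rate ratio was 2.24 (exact 95% interval 1.08 to 5.09, counting error only). At both genes ApcMin/+ replicate 2 was the highest library, and it was not the library with high promoters in general. Expressed as a multiple of the median tested promoter of the same library, Reg3b stood at 0, 0.102, 0.0698 and 0.464 and Reg3g at 0.231, 0.241, 0.0863 and 0.545, in the order wild-type replicates 1 and 2 and ApcMin/+ replicates 1 and 2. On that scale only ApcMin/+ replicate 2 was above the wild-type libraries, and ApcMin/+ replicate 1 lay below both of them at Reg3g. On that scale the 12 silent genes described below averaged 15.2% and 18.8% in wild type and 2.92% and 15.2% in ApcMin/+. Nearly empty windows are thus low in ApcMin/+ replicate 1 by the scale itself. As multiples of the library's background, Reg3b stood at 0, 1.02, 4.97 and 6.97 and Reg3g at 4.64, 2.39, 6.14 and 8.18. There both ApcMin/+ libraries were above both wild-type libraries, so the place of ApcMin/+ replicate 1 depends on the scale. Without ApcMin/+ replicate 2 the groups overlap at Reg3b relative to the median promoter.

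The signal in ApcMin/+ replicate 2 extended into both genes. At Reg3b an enriched stretch called on the mean of the 4 libraries, chr6:78371001-78371300, had a signal of 0 in wild-type replicate 1 and of 0.078 in wild-type replicate 2, the latter less than a whole fragment, and held 3 fragments in ApcMin/+ replicate 1 and 11 in ApcMin/+ replicate 2. At Reg3g the stretch chr6:78467901-78469000 held 3, 5, 6 and 20. Both stretches were called with these same libraries, so their counts are no separate evidence of a difference. The highest 100-bp bin within 2000 bp of the Reg3g start lay between 1900 and 2000 bp downstream, with 12.0 in ApcMin/+ replicate 2 and 0, 0.73 and 2.46 in the other libraries, wild-type replicates first. The share of 25-base words in the window that occur once in the genome was 80.3% at Reg3b and 99.2% at Reg3g, and 0.81% of the words of either window occur in the other.

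Saa1 and Saa2 encode serum amyloid A proteins, acute-phase proteins that the gut epithelium makes in contact with certain bacteria. At Saa1 (ENSMUSG00000074115.5, chr7:46740497-46742980, minus strand) the signal was 1.38, 0.42, 0.86 and 0.50, and at Saa2 (ENSMUSG00000057465.5, chr7:46751790-46754313, plus strand) 0.35, 0.13, 0.48 and 0.26, in the order wild-type replicates 1 and 2 and ApcMin/+ replicates 1 and 2. The groups overlapped at both genes on the deposited scale. After centring on the log2(signal + 1) scale both ApcMin/+ libraries lay below both wild-type libraries at either gene. Centring shifts windows this empty as much as marked promoters, so that order cannot be read as a lower mark. As multiples of the median tested promoter Saa1 stood at 0.304, 0.137, 0.0655 and 0.120, where the ApcMin/+ libraries were also the lower pair, and Saa2 at 0.0770, 0.0410, 0.0365 and 0.0618, where the groups overlapped. The windows held 4, 4, 6 and 5 fragments at Saa1, and 1, 1, 4 and 3 at Saa2. A difference between the genotypes in the rate per tag was not detectable at this depth, with rate ratios of 0.933 (exact 95% interval 0.342 to 2.67) and 2.37 (0.452 to 23.4), counting error only. Saa1 and Saa2 are near-identical neighbours on opposite strands: 39.2% of the 25-base words of either window occur in the other, and only 57.2% and 58.5% of their words occur once in the genome. Reads that fall on shared words may be dropped by the authors' filter on mapping quality or placed on either gene, so the values of this pair are uncertain.

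Lcn2 (ENSMUSG00000026822.14, chr2:32384633-32388252, minus strand) encodes lipocalin 2, which binds bacterial siderophores and withholds iron. The wild-type libraries had a signal of 3.60 and 0.69 there, the ApcMin/+ libraries one of 0.96 and 1.19. Wild-type replicate 1, the shallowest library, was the highest, and the groups overlapped. Its 3.60 rests on 10 fragments (exact 95% interval of the signal 1.68 to 6.43, counting error only), and the windows of the other libraries held 7, 7 and 13. A stretch upstream of the gene that runs past the window, chr2:32388801-32389500, had 7.65 in wild-type replicate 1 and 0.60, 1.93 and 1.15 in the others. A stretch inside the gene, chr2:32387401-32388100, had 4.32 in wild-type replicate 1 and 1.25, 0.73 and 2.02 in the others. Both stretches were called on the mean of all libraries, to which wild-type replicate 1 contributed most here. At another annotated start of a protein-coding transcript, 455 bp downstream, the signal was 1.85, 0.96, 0.41 and 1.25, again highest in wild-type replicate 1.

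The 5 effectors can be set beside 12 genes of other lineages that should be silent here, such as Myod1, Alb and Prm1. Single silent promoters ranged from 0 to 1.39 in wild-type replicate 1, 0.17 to 0.98 in wild-type replicate 2, 0.073 to 0.81 in ApcMin/+ replicate 1 and 0.25 to 1.48 in ApcMin/+ replicate 2. Saa2 lay within that range in 3 libraries and below it in wild-type replicate 2. Saa1 lay within it in 3 libraries and slightly above it in ApcMin/+ replicate 1. Reg3b was within the range in both wild-type libraries and above it in both ApcMin/+ libraries. Reg3g was above it in both ApcMin/+ libraries and inside it in both wild-type libraries, while Lcn2 was above it only in wild-type replicate 1 and ApcMin/+ replicate 1. The silent list itself summed to less in ApcMin/+ replicate 1 (4.61) than in the other libraries (6.89 to 8.27).

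The 7 relatives of these genes gave no further marked promoter. Reg1, Reg2, Reg3a, Reg3d and Reg4 and the acute-phase relatives Saa3 and Saa4 had means between 0.067 and 0.71, and 0 of 7 entered the test. Reg3a, at the same cluster as Reg3b and Reg3g, had 0.70 and 0.46 in the wild-type and 0.95 and 0.73 in the ApcMin/+ libraries, and Reg3d had 0.47, 0.37, 0.27 and 0.18. Both ApcMin/+ libraries were thus above the wild-type libraries at Reg3a and below them at Reg3d, by amounts of a few fragments each. Saa3 had 0, 0.45, 0.14 and 0.94 and overlapped between the groups. Reg1 and Reg2 windows consist largely of repeated words, with 51.2% and 36.3% of 25-base words unique.

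Pigr (ENSMUSG00000026417.13, chr1:130826684-130852249, plus strand) encodes the polymeric immunoglobulin receptor, which epithelial cells use to export IgA into the gut. Wild-type replicates 1 and 2 had a signal of 4.54 and 3.04, ApcMin/+ replicates 1 and 2 one of 28.4 and 6.40, from 13, 29, 211 and 70 fragments. The groups did not overlap, and ApcMin/+ replicate 1 was far above the other libraries. The log2 difference was 1.64 ± 1.18 (SE, n = 2 per group; limma, adjusted p = 0.68). After centring it was 0.79 ± 0.28, with both ApcMin/+ libraries still above both wild-type libraries, an unadjusted p of 0.0051 and an adjusted p of 0.95 in limma. Relative to the median promoter of the same library Pigr stood at 1.00 and 0.99 in wild type and at 2.16 and 1.53 in ApcMin/+. Of the tested promoters 99.4% had a lower centred difference, but the difference did not pass the test.

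Within each library Pigr ranked at percentiles 78.5 and 77.1 of all promoters in wild type, and at percentiles 97.4 and 93.6 in ApcMin/+. The mark lay almost wholly inside the gene: 89.5% of the signal within 2000 bp was downstream of the 5′ end, and the enriched stretch, chr1:130826201-130833000, spanned 6800 bp, longer than 99.7% of the 55851 stretches in the genome. Over the whole stretch the signal was 2.60, 2.46, 24.2 and 5.42. The stretch was called on the mean of the 4 libraries, to which ApcMin/+ replicate 1 contributed most. Its length therefore need not hold in the other libraries, and its signals are no separate evidence of a difference. GENCODE gives further starts 204 and 2326 bp downstream, and the signal around them was also higher in both ApcMin/+ libraries, with 5.23, 3.77, 36.1 and 7.12 at the former and 2.69, 2.36, 29.9 and 6.29 at the latter.

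**Figure D2:**
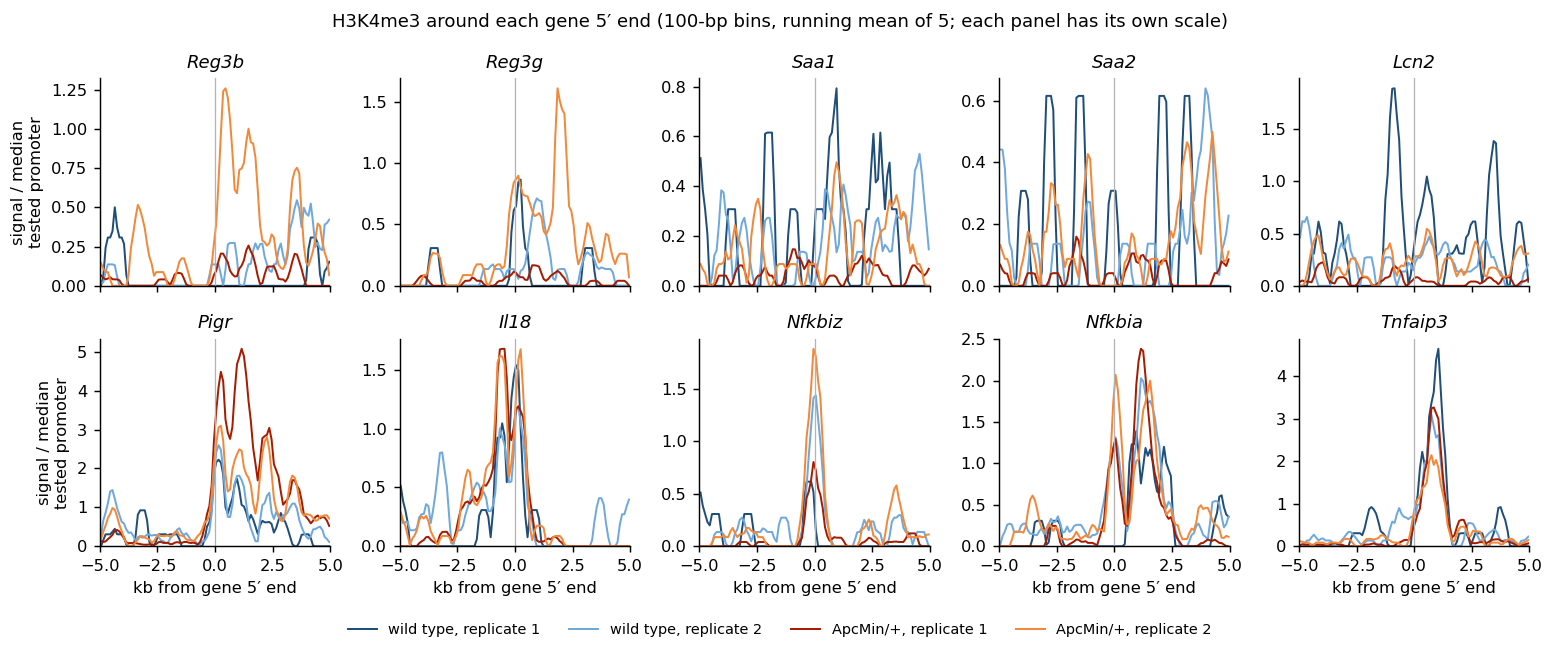
H3K4me3 signal in bins of 100 bp from 5 kb upstream to 5 kb downstream of each gene 5′ end, in the direction of transcription, divided by the median tested promoter of the library and smoothed over 5 bins, with 1 line per library and a separate vertical scale per panel. Pigr shows a mark that runs several kb into the gene and is highest in ApcMin/+ replicate 1, Nfkbiz a narrow peak at the 5′ end, and the upper row only scattered fragments outside ApcMin/+ replicate 2 at Reg3b and Reg3g and wild-type replicate 1 at Lcn2.

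Il18 (ENSMUSG00000039217.13, chr9:50554827-50581840, plus strand) encodes interleukin 18, which epithelial cells hold as an inactive precursor until a caspase cleaves it. The wild-type libraries had a signal of 3.49 and 1.98 at its promoter, the ApcMin/+ libraries one of 12.8 and 4.05, from 10, 19, 95 and 44 fragments. The groups did not overlap. The log2 difference was 1.19 ± 0.93 (SE, n = 2 per group; limma, adjusted p = 0.68), and after centring 0.34 ± 0.32, where both ApcMin/+ libraries were still above both wild-type libraries. Relative to the median promoter it stood at 0.769 and 0.647 in wild type and at 0.969 and 0.970 in ApcMin/+. As multiples of the library's background the groups overlapped, with 15.5 and 6.43 in wild type and 69.0 and 14.6 in ApcMin/+.

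The Il18 promoter cannot be separated from that of its neighbour. Bco2, a carotenoid-cleaving enzyme gene on the opposite strand, starts 354 bp from the Il18 5′ end and inside the same window, and a single enriched stretch, chr9:50552501-50555500, covers both starts. Only 34.1% of the signal within 2000 bp lay on the Il18 side of its 5′ end. At the other Il18 starts, 10547 and 20446 bp downstream, the means over the 4 libraries were 1.72 and 0.26. In none of the other 9 windows or their surroundings of 2500 bp did another gene start.

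The 3 regulators of NF-κB act at different steps. Nfkbia encodes IκBα, which retains NF-κB in the cytoplasm, Tnfaip3 encodes A20, a ubiquitin-editing enzyme that shuts off signalling upstream of IκB, and Nfkbiz encodes IκBζ, a nuclear protein that helps NF-κB switch on a second wave of genes that includes Lcn2. At Nfkbia (ENSMUSG00000021025.8, chr12:55489410-55492647, minus strand) the signal was 1.39 and 2.07 in wild type and 8.39 and 3.22 in ApcMin/+. The groups did not overlap. The log2 difference was 1.21 ± 0.76 (SE, n = 2 per group; limma, adjusted p = 0.68), and after centring 0.36 ± 0.40, where the groups overlapped.

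At Nfkbiz (ENSMUSG00000035356.17, chr16:55811375-55838899, minus strand) the signal was 0.70 and 1.46 in wild type and 3.61 and 2.83 in ApcMin/+, from 2, 14, 27 and 31 fragments. The groups did not overlap. The log2 difference was 1.04 ± 0.60 (limma, adjusted p = 0.68). After centring it was 0.19 ± 0.60 and the groups overlapped, with multiples of the median promoter of 0.154, 0.477, 0.274 and 0.678.

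Tnfaip3 (ENSMUSG00000019850.11, chr10:19000910-19015657, minus strand) differed in direction from the other marked genes once the libraries were centred. Its signal was 5.91 and 4.20 in wild type and 14.3 and 3.65 in ApcMin/+, so that ApcMin/+ replicate 2 was the lowest of the 4 libraries and the groups overlapped. The log2 difference was 0.50 ± 1.09 (SE, n = 2 per group; limma, adjusted p = 0.71) on the deposited scale and −0.36 ± 0.28 after centring (adjusted p = 1.00), where both ApcMin/+ libraries lay below both wild-type libraries. Relative to the median promoter it stood at 1.30 and 1.37 in wild type and at 1.09 and 0.875 in ApcMin/+.

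In all, 2 of the 5 tested genes (Pigr and Il18) had both ApcMin/+ libraries above both wild-type libraries after centring and 1 (Tnfaip3) had them below, beside 13.1% and 14.3% of all tested promoters. None of the 5 was among the 12 promoters that limma called after centring, which were 0.121% of those tested.

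**Figure D3:**
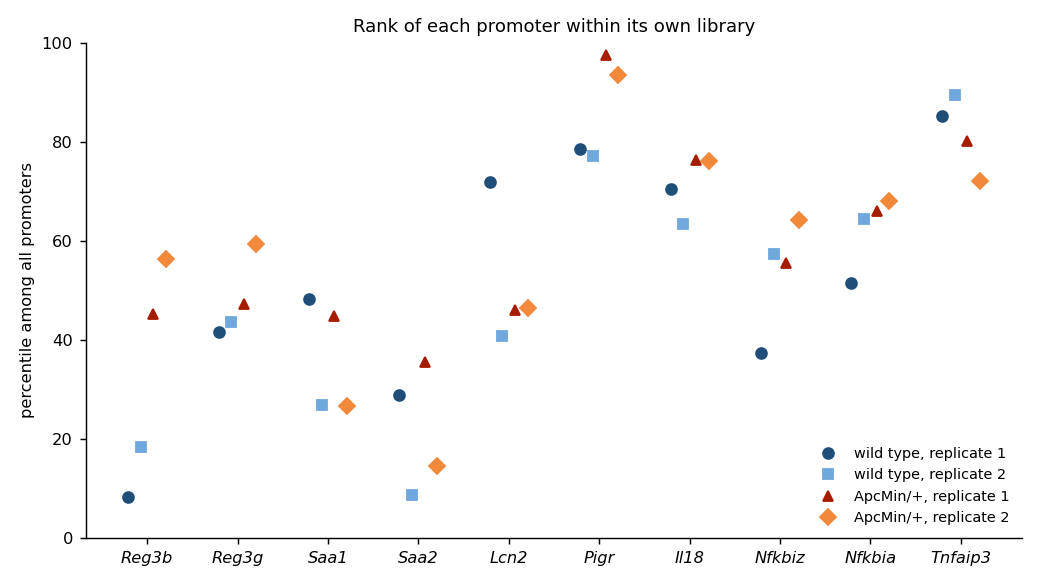
Percentile of each promoter among all 21938 promoters of the same library, with 1 point for each of the 4 libraries. Pigr lies between 77.1 and 97.4 and Tnfaip3 between 72.1 and 89.3, whereas Saa2 does not exceed 35.5, and Reg3b spans 8.35 to 56.3.

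Where the mark lay differed between the regulators. At Tnfaip3 90.4% and at Nfkbia 82.7% of the signal within 2000 bp was downstream of the 5′ end, with the highest 100-bp bin 800 to 900 bp and 1300 to 1400 bp into the gene. An annotated start 1075 bp into Tnfaip3 had 9.12, 4.10, 20.4 and 4.79, and another 837 bp into Nfkbia had 3.12, 3.88, 16.8 and 5.63. At Nfkbia the groups did not overlap there either. Nfkbiz had a narrow mark of 800 bp at its 5′ end (chr16:55838501-55839300), and a start 16761 bp into the gene carried more of it, with 3.43, 4.04, 24.0 and 5.64. At that start ApcMin/+ replicate 1 was far above ApcMin/+ replicate 2, unlike at the 5′ end.

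The marked and unmarked genes also differed in base composition, which the choice of genes did not use. The observed over expected CpG ratio of the window was 0.686 at Nfkbia, 0.563 at Tnfaip3 and 0.451 at Nfkbiz, 0.205 at Il18, and between 0.0685 and 0.185 at Pigr, Lcn2 and the Reg3 and Saa genes. Among the 5212 promoters of the genome with a ratio under 0.2, 3.43% had a mean signal of at least 2. Pigr, with a ratio of 0.185, belonged to that minority, and the 5 effectors to the rest. The corresponding share was 17.3% at ratios from 0.2 to 0.4, where Il18 lies, 62.3% from 0.4 to 0.6 and 79.3% above.

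The genes that carry signals to these promoters were mostly marked. Of 29 other NF-κB factors, kinases and inhibitors, 26 had a mean signal of at least 2, and 0 passed the test. Their median log2 difference was 0.88 and after centring 0.02, with 15 of 26 above 0, beside 48.8% of all tested promoters. After centring both ApcMin/+ libraries lay above both wild-type libraries at 7 of the 26 and below at 2. The shares over all tested promoters were 13.1% above and 14.3% below. The highest centred differences were at Bcl3 (0.71), which encodes a nuclear IκB protein, Nfkb1 (0.50), the p105 and p50 subunit, and Tab1 (0.43), an activator of the kinase TAK1. At Bcl3 the signal was 3.21 and 2.20 in wild type and 20.8 and 4.43 in ApcMin/+. The lowest were at Tab2 (−0.43), a partner of the same kinase, Nfkb2 (−0.29), the p100 subunit, and Chuk (−0.25), the kinase IKKα.

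Of 26 receptors and adaptors of the IL-1, Toll-like, NOD and IL-17 pathways, 17 entered the test and 0 passed. Their median log2 difference was 0.68, and −0.17 after centring, with 2 of 17 above 0, beside 48.8% of all tested promoters. Both ApcMin/+ libraries lay below both wild-type libraries after centring at 4 of the 17 and above at 0, beside 14.3% below and 13.1% above among all tested promoters. The lowest was Irak3 (−0.82), an inhibitory kinase of the pathway, with 3.32 and 1.91 in wild type and 3.995 and 1.65 in ApcMin/+, and the highest Nod1 (0.27), an intracellular sensor of bacterial peptidoglycan. Of 14 genes of the IL-22, IL-6 and STAT3 axis, 11 entered the test and 0 passed, with a median of 0.88 and 0.02 after centring, where the ApcMin/+ libraries were the lower pair at 2 and the upper pair at 0. Il22ra1, the IL-22 receptor chain that epithelial cells carry, had 16.9 and 7.57 in wild type and 43.2 and 7.20 in ApcMin/+, and groups overlapped. Cebpb, a factor of the acute-phase response, was the lowest of that list after centring (−0.94).

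Of 14 genes for the maturation of and response to IL-18, 8 entered the test and 0 passed, with a median of 1.28 and 0.42 after centring. The centred difference was above 0 at 6 of 8, beside 48.8% of all tested promoters. Naip1 and Casp4, which are among the 6, reached the minimum of 2 only through ApcMin/+ replicate 1. Their signal was 0, 1.36, 8.73 and 1.53 at Naip1 and 0.70, 1.21, 5.45 and 1.51 at Casp4, wild-type replicates first. The ApcMin/+ libraries were the upper pair after centring at 2 of the 8 and the lower pair at 0, beside 13.1% and 14.3%. Casp1, whose product cleaves the IL-18 precursor, was the highest after centring (0.93), with 2.44 and 2.71 in wild type and 22.5 and 5.46 in ApcMin/+ (limma, adjusted p = 0.51 after centring). Gsdmd, which encodes the pore protein gasdermin D, was near 0 (−0.02). Of 14 chemokines and cytokines of the epithelium, 7 entered the test and 0 passed, with a median of 0.84 and −0.01 after centring. Their range after centring went from −0.29 at Il15 to 0.17 at Ccl28, and the groups overlapped at all 7.

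Of 25 other antimicrobial and barrier genes only 3 entered the test and 0 passed. They were Lypd8, whose product keeps flagellated bacteria off the epithelium, Fut2, a fucosyltransferase of the mucosal glycans, and Nlrp6, an inflammasome sensor. At Lypd8 the signal was 1.74 and 1.18 in wild type and 13.8 and 5.69 in ApcMin/+, from 5, 11, 102 and 62 fragments, and the groups did not overlap. Its centred log2 difference of 1.17 was the highest of all the tested genes in these lists (limma, adjusted p = 0.28 after centring). At Fut2 the signal was 0.84, 0.79, 10.3 and 0.87, so that its centred difference of 0.48 rested on ApcMin/+ replicate 1. Lypd8 and Fut2 were under 2 in both wild-type libraries and reached the minimum only through ApcMin/+ libraries, which favours a high difference. Nlrp6 had 8.03 and 5.33 in wild type and 24.6 and 7.28 in ApcMin/+, with 0.09 after centring. After centring the groups did not overlap at 1 of the 3, Lypd8. Among all tested promoters 13.1% had the ApcMin/+ pair above and 14.3% below.

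**Figure D4:**
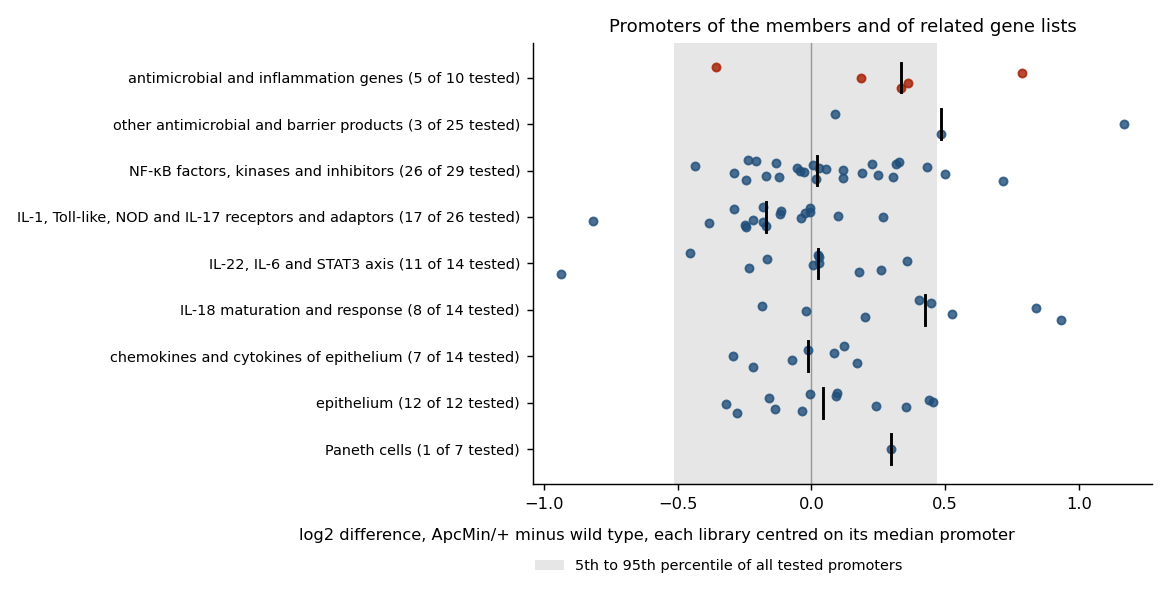
Log2 difference of H3K4me3 signal between ApcMin/+ and wild type after each library was centred on its median promoter, with 1 point per tested promoter, a bar at the median of each list and a grey band from the 5th to the 95th percentile of the 9930 tested promoters (−0.51 to 0.47). Pigr (0.79) lies right of the band and the other 4 tested genes inside it, and no point on the plot passed the limma test.

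The label of the samples was checked against markers of the cell types that a scraping can hold. All 12 epithelial markers, such as Epcam, Cdh1 and Vil1, had a mean signal of at least 2. None of the 16 immune markers did, nor of the 11 stromal and endothelial and the 7 goblet cell markers, and 1 of 7 Paneth cell markers did (Pnliprp2). The immune markers summed to 14.3 and 9.66 in wild type and to 19.1 and 11.6 in ApcMin/+, with Ptprc at 0 in wild-type replicate 1 and no marker at 0 elsewhere. On the deposited scale ApcMin/+ was the upper pair at 7 of the 16 immune markers and the lower pair at 2. Among all promoters 26% and 7.17% had these orders. As a mean percentage of the median tested promoter the immune markers stood at 19.8% and 19.7% in wild type and at 9.07% and 17.4% in ApcMin/+. The 12 silent genes stood at 15.2%, 18.8%, 2.92% and 15.2%, wild-type replicates first. The low value of ApcMin/+ replicate 1 therefore cannot be read as fewer immune cells. The Paneth cell markers, whose cells are a known source of Reg3g, stood at 12.3% and 12.9% in wild type and 11.6% and 14.4% in ApcMin/+, with Mmp7, Defa24 and Mptx2 at 0 in wild-type replicate 1 and Mptx2 at 0 in ApcMin/+ replicate 2. Much of this is Pnliprp2, with 1.81, 1.05, 7.70 and 2.27 of a summed signal of 3.90, 2.77, 10.7 and 4.20, wild-type replicates first. The part of either cell type in the Reg3b and Reg3g values was not tested.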

How the data were processed

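H3K4me3 CUT&RUN of 4 libraries (2 wild-type and 2 ApcMin/+ mice) was analysed, with groups taken from the genotype in the labels. Per the methods and labels, the authors used Bowtie2 to align the trimmed pairs to mm10, removed duplicates with Picard, filtered on mapping quality and kept fragments of 150 to 500 bp. The deposited values are signal, the coverage per base that HOMER wrote after the authors scaled it to 10000000 tags, so that a library with more of its tags at promoters has higher promoters throughout. No control was subtracted and replicates were not pooled.

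Signal was averaged over 1000 bp on each side of the 5′ end of 21938 protein-coding genes (GENCODE M21, 21 chromosomes). Promoters with a mean of at least 2 were tested with limma 3.58.1 (trend, R 4.3.3) on log2(signal + 1), a scale that understates changes of low values, with Benjamini-Hochberg adjustment over all 9930 at a threshold of 0.05. The p-values and SE of limma rest on the spread between the 2 mice of a group, shared over tested promoters by a trend on mean signal. They do not measure the spread at a single promoter. Fragments per window were derived from the signal and the tag totals, and their 95% intervals are exact Poisson or, for ratios, exact conditional binomial ones that cover counting error only. PCR duplicates were removed without molecular identifiers. Enriched stretches were called on the mean of the 4 tracks in 100-bp bins at 5 times the genome-wide mean, with gaps up to 500 bp joined and a minimum of 300 bp, and background was taken more than 5000 bp from any start. Words of 25 bases, CpG and promoter sequences came from GRCm38.p6. Other steps ran in Python 3.11.15 (scipy 1.17.1, pandas 2.3.3, numpy 2.4.6). The test was tested on simulated data with the depths of these libraries and a set of changed promoters. The simulated data held no general shift like that of ApcMin/+ replicate 1, so they do not show how the test behaves under it.

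All 10 genes are named, and of each other list its counts, at most the 3 highest and 3 lowest tested genes by centred difference and relatives at the same locus; Myod1, Alb, Prm1 and the epithelial, immune and Paneth markers given as examples, or at 0, were picked outside this rule. The genes and lists were chosen with earlier results of these data known. The alternatives were the pseudocount (0.1 and 5), the minimum signal, the window, the start used, centring, quantile normalization, scaling to background, a replicate block and leaving out each library.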

Additional observations from a re-analysis of the deposited data

How the results depend on the processing

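The windows of the 5 effector promoters held 0 to 25 fragments and those of Nfkbiz 2 to 31, and a mean signal under 2 kept the former out of the test. On the deposited scale, with all libraries and no block, 0 promoters passed the threshold. Centring gave 12 promoters past it, quantile normalization 2 and the replicate block 1, and the replicate block with centring 15, none of them among the 10 genes. Leaving out 1 library gave 0 to 6479 promoters and 0 to 4 of the 10 genes past the threshold, the upper ends without ApcMin/+ replicate 2, where the lone library is assumed to vary like the wild-type group. With centring it gave 2 and 18 promoters when wild-type replicate 1 or 2 was left out, and 0 and 30 when ApcMin/+ replicate 1 or 2 was. Same-numbered libraries share only a number by the labels; their deviations from the group means correlated over promoters with r = 0.196, and the block changed no call among the 10 genes.

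The number of genes with both ApcMin/+ libraries above both wild-type libraries was 6, and 2 with centring, 3 of the 5 tested with quantile normalization, and 2 with the replicate block and centring. It was 5 with a window of 500 bp and 5 with scaling to background, where the groups overlapped at Il18. The number ranged from 6 to 9 when a library was left out, and from 2 to 6 with centring. Of the 9930 tested promoters, 3820 had that order on the deposited scale, 1299 with centring and 1469 with quantile normalization. With a library left out 3834 to 9817 of them had it, and 2864 to 3331 with centring. The median log2 difference of the tested genes was 0.34 with centring and with the replicate block and centring, and with centring it was −0.043 without wild-type replicate 1, 0.21 without ApcMin/+ replicate 2 and at most 0.68 with any library left out, against 0.64 to 1.79 on the deposited scale. Tnfaip3 turned to −0.36 with centring and with the replicate block and centring, to −0.41 with quantile normalization, to −0.36 without ApcMin/+ replicate 1, and with centring to −0.38, −0.34, −0.49 and −0.22 without wild-type replicates 1 and 2 and ApcMin/+ replicates 1 and 2, while without ApcMin/+ replicate 2 on the deposited scale it was 1.36. With centring Nfkbiz turned to −0.30 without wild-type replicate 1 and to −0.41 without ApcMin/+ replicate 2, and Nfkbia to −0.043 without wild-type replicate 1. The cause of these changes was not tested beyond the scaling itself. The pseudocount, the minimum signal, the window, the start and scaling to background changed no direction of a tested gene and no call, but moved values. The median log2 difference was 0.64 with a pseudocount of 5, and 0.77 over all 10 genes with no minimum. With a pseudocount of 5 Il18, Nfkbiz and Nfkbia had 0.72, 0.44 and 0.64, with one of 0.1 Nfkbiz had 1.56, and with a window of 500 bp Nfkbia had 2.08 and Tnfaip3 0.33.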
